A study of Mus musculus with 24 samples.

Results

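The EGR, NR4A and IER immediate early genes were followed through 24 arrays of mouse CD4+ T cells. The members were taken by name as every probe whose gene symbol in the deposited table was Egr1, Egr2, Egr3, Nab2, Nr4a1, Nr4a2, Nr4a3, Ier2 or Ier3. The rule gave 11 probes for 9 genes out of 25697 probes, and the rule used names alone, although the members were picked with earlier results of these data known. A probe was detected on an array when its detection p-value, the chance that a probe without target is as bright, was at most 0.02. Probes detected on at least 1 array numbered 14246, with 10545 gene symbols, and 7 of the 9 members were among them. Nr4a1 and Ier2 were detected on none of the 24 arrays and entered no test.

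Naïve CD4+ T cells came from spleen and lymph nodes of 4 to 6 week old wild type (WT) mice and of mice with a conditional deletion of Pbrm1, the gene of BAF180, driven by Cre under the CD4 promoter. BAF180 is a subunit of PBAF, a chromatin remodelling complex of the SWI/SNF family. Each genotype gave 4 states with 3 replicates lettered A to C, namely resting Naïve cells, Naïve cells kept for 24 h on plates coated with anti-CD3 (1 μg/ml) and anti-CD28 (2 μg/ml), resting Th2 cells, and Th2 cells treated for 1.5 h with PMA (50 ng/ml) and ionomycin (500 ng/ml). The Th2 cells, controls included, had themselves been grown from Naïve cells on the same antibodies with IL-4 (10 ng/ml) and anti-IFN-γ (10 μg/ml), then expanded in IL-2 (100 U/ml). The labels give the strain as Balb/c in both genotypes, while the methods describe a mixed background, and the deletion is limited to cells in which the CD4 promoter was active. Cell type, stimulus and time differed together between both kinds of stimulation, so their parts in a difference between the responses cannot be told apart.

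Immediate early genes are transcribed within minutes of a signal, from factors already present in the cell, and most of their transcripts decay quickly. EGR proteins are zinc finger transcription factors induced in T cells through RAS and ERK signalling and calcium, and NAB2 is a corepressor that binds them. NR4A proteins are orphan nuclear receptors induced by antigen receptor signals, and IER genes encode small proteins induced by growth factors and stress. PMA activates protein kinase C and RAS, ionomycin raises calcium, and antibodies against CD3 and CD28 stand in for antigen and costimulation.

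Between 8047 and 10689 probes were detected per array. The table lists Pbrm1 under an older symbol, 2610016F04Rik, with 3 probes, and its brightest probe was lower in BAF180-deficient cells in every state, by 3.63-fold at rest and 2.67-fold after stimulation in Th2 cells and by 2.02-fold and 3.10-fold in Naïve cells, with all BAF180-deficient arrays below all WT arrays each time. All 7 CD4 T cell markers were detected on all arrays. The summed level of 6 Th2 markers was 8.68 to 9.19 (log2) in resting Naïve, 9.89 to 11.54 in stimulated Naïve, 10.39 to 11.34 in resting Th2 and 14.21 to 14.38 in stimulated Th2 cells, so stimulated Naïve and resting Th2 arrays overlapped, and Il1rl1 was not detected in resting Th2 cells. The summed level of 6 naïve T cell markers did not separate resting Naïve (12.75 to 12.89) from resting Th2 cells (12.62 to 13.10). Markers of other cells were high in the resting Naïve samples. The summed level of 7 B cell markers was 12.29 to 13.02 there against 8.09 to 10.69 on all other arrays. The summed level of 6 myeloid markers was 10.71 to 12.28 there against 6.94 to 7.33, and Lyzs, Cd14 and Tyrobp were detected on no array outside the resting Naïve groups. Resting Naïve replicate C stood apart for several members in both genotypes, and results that rest on it are given with and without it.

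The bases before the transcription start are shown because several members share short motifs there that are known from other immediate early genes. RefSeq windows of build GRCm38.p6 were searched for Egr2, Nab2, Nr4a1, Nr4a2, Nr4a3 and Ier3. Egr1, Egr3 and Ier2 were not searched and are named only. In the 250 bases before each start, both strands were searched for the CArG box (the site of serum response factor), the CRE TGACGTCA and its core TGACG, which the CRE contains (sites of CREB and ATF factors), the AP-1 site TGANTCA, the EGR site GCGNGGGCG, the ETS core CCGGAA and the TATA box TATAAA. Capitals mark the bases of any match, and all sequences run 5′ to 3′ towards the start.
Egr2, chr10:67537619-67537868, plus strand: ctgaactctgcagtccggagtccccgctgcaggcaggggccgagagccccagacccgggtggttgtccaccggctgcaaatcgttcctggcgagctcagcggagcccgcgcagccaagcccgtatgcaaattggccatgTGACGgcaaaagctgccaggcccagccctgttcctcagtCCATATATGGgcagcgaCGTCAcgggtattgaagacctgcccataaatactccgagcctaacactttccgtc
Nr4a1, chr15:101266596-101266845, plus strand: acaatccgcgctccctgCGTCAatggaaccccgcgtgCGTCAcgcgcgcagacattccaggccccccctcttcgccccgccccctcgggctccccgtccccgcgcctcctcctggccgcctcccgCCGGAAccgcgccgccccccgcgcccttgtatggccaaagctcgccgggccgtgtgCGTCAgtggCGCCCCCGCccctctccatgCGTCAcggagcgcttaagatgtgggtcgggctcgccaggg
Nr4a2, chr2:57124004-57124253, minus strand: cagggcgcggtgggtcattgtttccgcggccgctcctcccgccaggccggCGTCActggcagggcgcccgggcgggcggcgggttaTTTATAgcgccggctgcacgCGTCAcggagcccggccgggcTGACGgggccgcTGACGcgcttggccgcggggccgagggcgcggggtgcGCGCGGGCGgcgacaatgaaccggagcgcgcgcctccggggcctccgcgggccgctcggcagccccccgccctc
Nr4a3, chr4:48045055-48045304, plus strand: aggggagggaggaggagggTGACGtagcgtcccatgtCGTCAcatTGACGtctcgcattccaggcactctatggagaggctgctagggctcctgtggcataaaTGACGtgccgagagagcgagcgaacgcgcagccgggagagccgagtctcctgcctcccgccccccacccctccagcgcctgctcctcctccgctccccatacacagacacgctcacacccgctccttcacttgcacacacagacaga

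The 3 NR4A windows each held 4 copies of TGACG, counted on both strands, and 4 or more copies were found in 45 of the 32851 windows of the table (0.137%). The cutoff of 4 is the count of these 3 windows themselves, which are among the 45, so the share is no test. At least 1 copy was held by 17.8% of all windows. The Egr2 window shown, 1 of 5 listed for that gene, held a CArG box 72 bases before its start, a motif held by 1.47% of all windows, and 2 copies of TGACG. The Nr4a1 and Nr4a2 windows held the EGR site, as 4.7% of windows did. Nr4a1 also held the ETS core (12% of windows) and Nr4a2 the TATA box on the other strand (12.4% of windows). No searched window of a member held TGACGTCA (1.55% of all windows) or TGANTCA (6.75%), and the Ier3 and Nab2 windows held none of the motifs. A match is a description of the letters, and factor binding was not measured.

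The first question was how strongly these genes answered a short restimulation of Th2 cells. In WT Th2 cells 1.5 h of PMA and ionomycin raised 6 of the 7 detected members (adjusted p below 0.05), against 12.6% of all 10545 genes called higher. The same 6 were called higher in BAF180-deficient Th2 cells, against 11.7% of all genes. In each genotype all stimulated arrays lay above all resting arrays for 6 members, against 18.7% of all genes in WT and 20.3% in BAF180-deficient cells. The members' median change was 1.60 (log2) in WT and 1.26 in BAF180-deficient cells, and the median of all genes was -0.01 in both.

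Egr2 showed the largest rise among the members in both genotypes. Its normalised log2 intensity in WT Th2 cells was 5.04, 5.58 and 4.80 at rest and 10.36, 9.92 and 10.79 after PMA and ionomycin (replicates A, B and C). In BAF180-deficient Th2 cells it was 5.13, 4.84 and 5.12 at rest and 10.29, 10.51 and 10.71 after treatment. Resting and stimulated arrays were far apart in both genotypes. The rise was 5.21 on the log2 scale in WT (SE 0.40, limma adjusted p = 4.29e-09), or 37.1-fold, and 5.47 in BAF180-deficient cells (SE 0.40, limma adjusted p = 2.73e-09), or 44.5-fold. Egr2 ranked 13 and 11 among the 14246 probes by this change.

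Egr1 encodes the founding member of the EGR family. Its probe was detected on all 24 arrays. The probe is placed at base 4411 of its transcript record, while the gene spans 3750 bases in RefSeq. Whether this probe can report Egr1, and which part of the transcript, was not tested. Its level in WT Th2 cells was 6.46, 6.72 and 6.03 at rest and 10.33, 10.04 and 10.74 after stimulation. In BAF180-deficient Th2 cells the values were 6.01, 5.88 and 5.67 at rest and 9.80, 10.01 and 10.42 after stimulation. The groups did not overlap. The rise was 3.97 (SE 0.33, limma adjusted p = 1.63e-08; 15.7-fold) in WT and 4.22 (SE 0.33, limma adjusted p = 8.46e-09; 18.6-fold) in BAF180-deficient cells.

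Egr3, a close relative of Egr2, was near background throughout. Its single probe was detected on 3 of 24 arrays, and its values ran from 4.20 to 4.85 over all groups. The change in Th2 cells was 0.02 in WT (95% interval -0.32 to 0.37) and -0.22 in BAF180-deficient cells (-0.56 to 0.12). At this brightness the probe gives a bound on the signal rather than a level of the transcript.

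Nab2, the EGR corepressor, was not detected on any resting WT Th2 array and was detected on all 3 stimulated ones. Its level in WT Th2 cells was 4.43, 4.59 and 4.29 at rest and 4.91, 4.73 and 5.05 after stimulation. The measured rise was 0.46 (SE 0.12, limma adjusted p = 0.00685), at least 1.23-fold, the dim side being taken as no lower than the faintest detected probe of each array. In BAF180-deficient cells, with 1 of 3 resting arrays detected, the rise was 0.47 (SE 0.12, limma adjusted p = 0.00629). Under the study's 4 criteria, applied as an alternative, both calls were lost because the Z-ratio, the difference over the standard deviation of all differences, was 0.64 and 0.69. No stimulated array overlapped a resting one in either genotype, but all values lay within 1 log2 unit of each other.

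Among the NR4A receptors Nr4a3 rose most. Its brightest probe read 4.38, 4.28 and 4.32 in resting and 7.50, 6.77 and 7.34 in stimulated WT Th2 cells. In BAF180-deficient cells it read 4.31, 4.29 and 4.35 at rest and 6.96, 7.13 and 6.48 after stimulation. No resting Th2 array detected it and every stimulated one did. The rise was 2.88 in WT (SE 0.52, limma adjusted p = 0.000229), at least 6.08-fold, and 2.54 in BAF180-deficient cells (SE 0.52, limma adjusted p = 0.000898), at least 4.86-fold. Of the other Nr4a3 probes, the one detected on 14 arrays was called in the same direction, with rises of 2.48 in WT and 2.03 in BAF180-deficient cells. The one detected on 5 arrays, all of stimulated Th2 cells, passed the detection filter only through that state. Its called rises of 0.90 in WT and 0.82 in BAF180-deficient cells are therefore no separate support.

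Nr4a2 moved less. It read 4.39, 4.33 and 4.29 in resting WT Th2 cells, all below detection, and 5.49, 5.12 and 5.80 after stimulation. In BAF180-deficient cells the resting values were 4.50, 4.39 and 4.29 and the stimulated values 5.44, 5.35 and 5.60. The groups were separate, with rises of 1.13 in WT (SE 0.27, limma adjusted p = 0.00334; at least 1.83-fold) and 1.07 in BAF180-deficient cells (SE 0.27, limma adjusted p = 0.00559; at least 1.85-fold). The probe of Nr4a1, the receptor also called Nur77, had deposited intensities of 36.1 to 45.2 on all 24 arrays, with a lowest detection p-value of 0.09273.

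Ier3, which encodes a regulator of cell survival, read 6.82, 7.40 and 6.91 in resting and 8.58, 8.61 and 8.76 in stimulated WT Th2 cells. In BAF180-deficient cells it read 7.72, 7.37 and 7.22 at rest and 9.04, 8.44 and 8.60 after stimulation. All stimulated arrays were above all resting arrays. The rise was 1.60 in WT (SE 0.42, limma adjusted p = 0.00682), or 3.04-fold, and 1.26 in BAF180-deficient cells (SE 0.42, limma adjusted p = 0.033), or 2.39-fold. The second call was lost in 4 of the 6 fits that left out 1 replicate (resting B, resting C, stimulated A or stimulated C), and over the 6 fits the adjusted p ran from 0.0464 to 0.125. The probe of Ier2 had intensities of 38.1 to 46.8, and it is placed at base 3129 of its transcript record, while the gene spans 1522 bases in RefSeq, so whether this probe can report Ier2 was not tested.

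**Figure D1:**
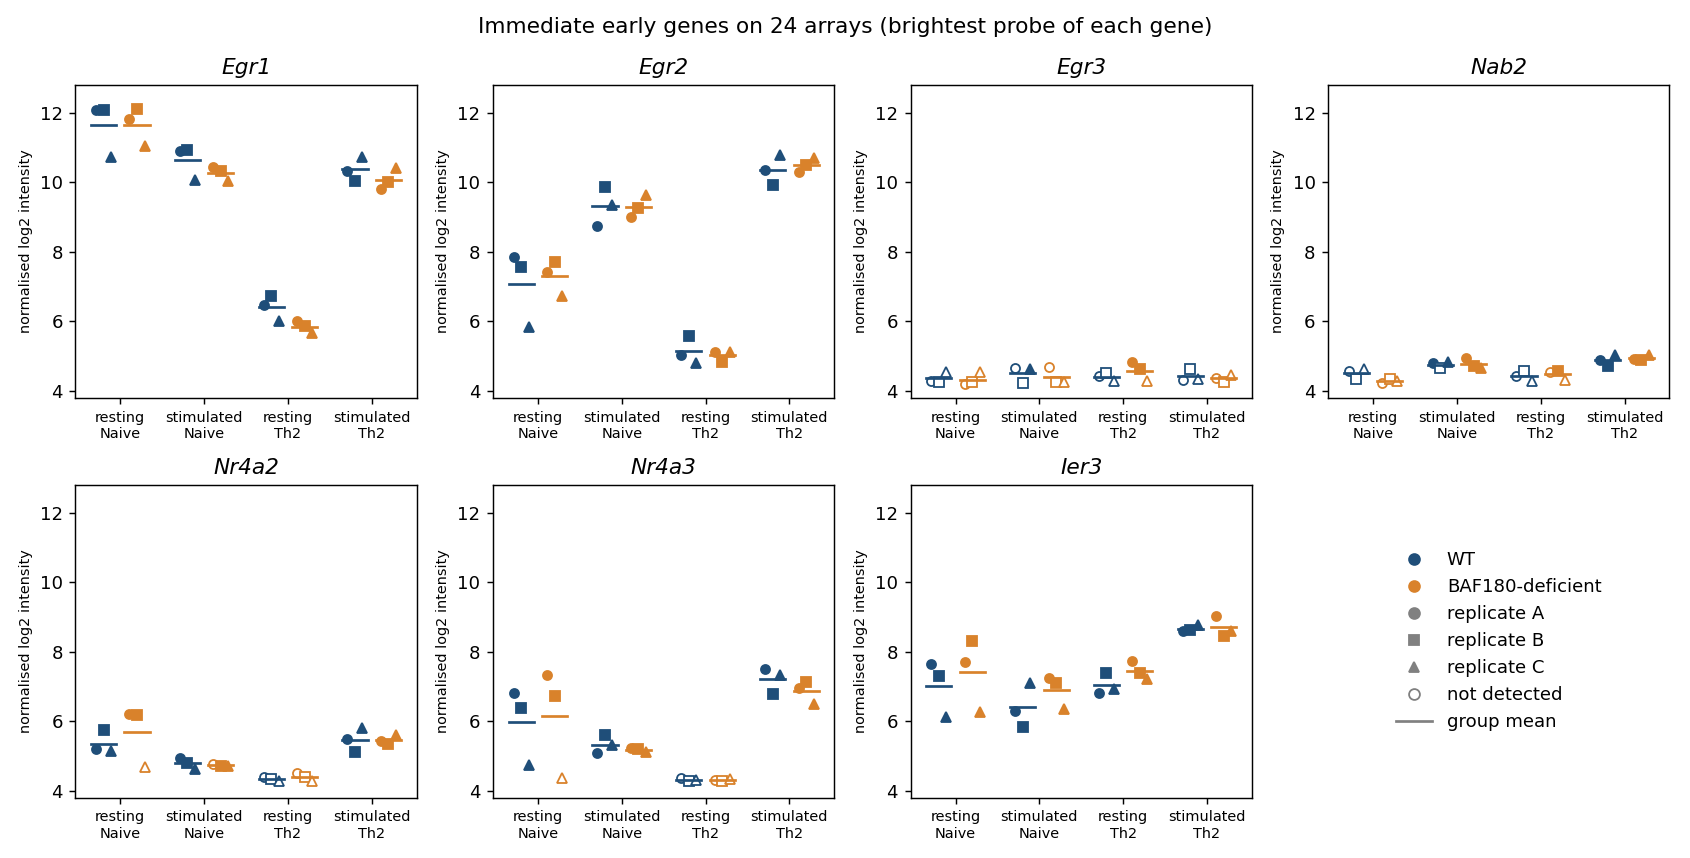
Normalised log2 intensity (y axis) of the brightest probe of each detected member in the 4 states (x axis), with blue for WT, orange for BAF180-deficient, a symbol for each replicate, open symbols for arrays where the probe was not detected, and a line at each group mean of 3 arrays. Egr1 was highest in resting Naïve cells (10.74 to 12.10), Egr2 was highest in stimulated Th2 cells (9.92 to 10.79), and Egr3 stayed between 4.20 and 4.85.

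The second question was what remained different after 24 h of antibody stimulation of Naïve cells. Of the 7 detected members 2 were called in WT, Egr2 higher and Egr1 lower, where 23.2% of all genes were called higher and 21.8% lower. In BAF180-deficient Naïve cells 4 were called, Egr2 and Nab2 higher and Egr1 and Nr4a2 lower, against 22% and 21.3% of all genes. These shares do not stand far from those of all genes. Without overlap of arrays, 2 members were higher and 1 lower in each genotype. Of all genes, 25.3% were higher and 23.8% lower without overlap in WT, and 25.1% and 24% in BAF180-deficient cells. The members' median change was -0.57 in WT and -0.54 in BAF180-deficient cells.

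Egr2 was the only member called higher at 24 h in both genotypes. It read 7.85, 7.58 and 5.84 in resting WT Naïve cells and 8.75, 9.87 and 9.34 after stimulation. In BAF180-deficient Naïve cells it read 7.44, 7.71 and 6.74 at rest and 9.00, 9.26 and 9.64 after stimulation. Replicate C was the lowest resting array in both genotypes, and even the highest resting arrays were below the stimulated ones. The rise was 2.23 in WT (SE 0.40, limma adjusted p = 0.000105; 4.68-fold) and 2.01 in BAF180-deficient cells (SE 0.40, limma adjusted p = 0.000318; 4.02-fold). Without the resting C array the rises were 1.60 and 1.73, and both stayed called.

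Egr1 went the other way. Resting WT Naïve cells read 12.09, 12.09 and 10.74, and stimulated ones 10.89, 10.93 and 10.07. Resting BAF180-deficient Naïve cells read 11.83, 12.10 and 11.04, and stimulated ones 10.44, 10.31 and 10.03. Resting and stimulated arrays overlapped in WT, where the resting C array was the lowest, and did not overlap in BAF180-deficient cells. The difference was -1.01 in WT (SE 0.33, limma adjusted p = 0.0172), or 2.01-fold lower, and -1.40 in BAF180-deficient cells (SE 0.33, limma adjusted p = 0.00173), or 2.63-fold lower. In WT the call was lost in 3 of the 6 fits that left out 1 replicate, without resting A, resting B or stimulated C, with adjusted p up to 0.116 and values from -1.46 to -0.73. The deposited intensities averaged 1604.67 at rest and 1715.2 after stimulation in WT, and 1796.23 and 1482.17 in BAF180-deficient Naïve cells. The lower stimulated level in WT was thus seen only after normalization between arrays.

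Nab2 rose by 0.49 in BAF180-deficient Naïve cells (SE 0.12, limma adjusted p = 0.00296), from 4.23, 4.34 and 4.29 to 4.94, 4.73 and 4.65, with no overlap. That call was lost with Z-score normalization, where the rise was 0.15 (limma adjusted p = 0.217), and under the 4 criteria. In WT the change was 0.25 (SE 0.12, limma adjusted p = 0.106), from 4.57, 4.34 and 4.62 to 4.80, 4.66 and 4.82. Neither resting group detected the probe. The test of the difference between genotypes gave 0.23 (95% interval -0.13 to 0.60) and no call.

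Nr4a2 and Nr4a3 were spread widely at rest. Nr4a2 read 5.20, 5.74 and 5.14 in resting WT and 6.20, 6.19 and 4.69 in resting BAF180-deficient Naïve cells, against 4.63 to 4.94 in stimulated WT and 4.70 to 4.78 in stimulated BAF180-deficient cells. Nr4a3 read 6.82, 6.37 and 4.75 in resting WT and 7.34, 6.72 and 4.36 in resting BAF180-deficient cells, against 5.09 to 5.59 and 5.11 to 5.24 after stimulation. In both genes the lowest resting array was C. The Nr4a2 difference was -0.57 in WT (SE 0.27, limma adjusted p = 0.0989) and -0.96 in BAF180-deficient cells (SE 0.27, limma adjusted p = 0.00723), a call lost without resting BAF180-deficient A or B (limma adjusted p = 0.0594 and 0.0596). The Nr4a3 difference was -0.65 in WT (SE 0.52, limma adjusted p = 0.338) and -0.96 in BAF180-deficient cells (SE 0.52, limma adjusted p = 0.15). The other Nr4a3 probes disagreed on the call. One was called lower in BAF180-deficient cells at -1.33 (SE 0.51, limma adjusted p = 0.0392), with overlapping groups, and read -0.83 in WT (SE 0.51, limma adjusted p = 0.199). The other was detected on no Naïve array and read -0.16 and -0.05.

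Ier3 read 7.65, 7.30 and 6.13 in resting and 6.28, 5.84 and 7.11 in stimulated WT Naïve cells. It read 7.70, 8.32 and 6.27 in resting and 7.24, 7.09 and 6.35 in stimulated BAF180-deficient Naïve cells. The groups overlapped in both genotypes, and the differences were -0.61 (95% interval -1.50 to 0.27) and -0.54 (-1.42 to 0.35). Deposited intensities of Ier3 averaged 95.8 at rest and 123.23 after stimulation in WT, and 128.07 and 157.6 in BAF180-deficient Naïve cells. A lower stimulated mean of Ier3 was thus seen only after normalization between arrays. Egr3 changed by 0.15 and 0.07, within its background range.

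The resting C arrays decided several of these calls. With both of them left out, an alternative chosen after the values were seen, 5 members were called in WT Naïve cells in place of 2. Nr4a2 was then -0.68 (limma adjusted p = 0.00383), Nr4a3 -1.27 (limma adjusted p = 0.000174) and Ier3 -1.06 (limma adjusted p = 0.0113). In BAF180-deficient cells Nr4a3 was then -1.85 (limma adjusted p = 3.07e-06) and Ier3 -1.11 (limma adjusted p = 0.00884). By deposited intensity, Ier3 in resting A and B was 105.1 and 103.1 in WT, against a stimulated mean of 123.23. In BAF180-deficient cells it was 123.9 and 176.9, against 157.6. The C arrays did not stand apart by CD4 T cell markers, whose summed level was 13.72 and 13.67 against 13.60 to 13.75 on the other 4 resting Naïve arrays. The WT C array had the highest myeloid marker sum, 12.28 against 10.71 to 11.22 on the other 5 arrays. The part of such differences in the low C values was not tested.

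**Figure D2:**
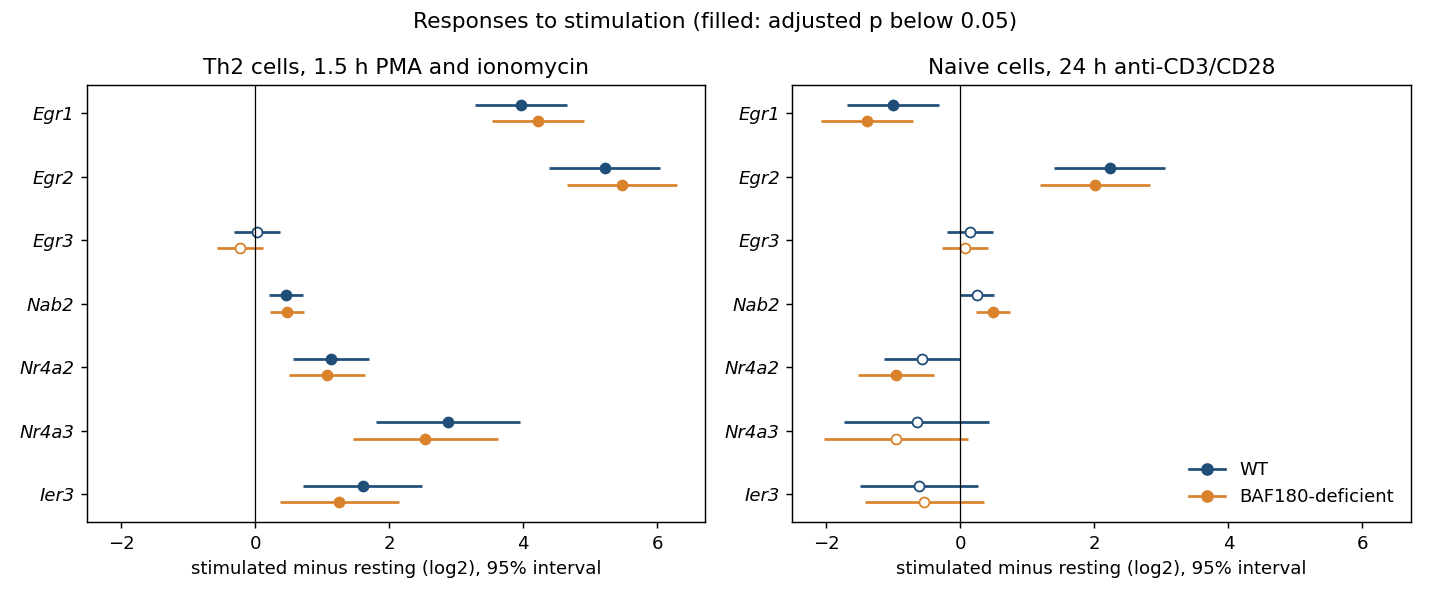
Stimulated minus resting difference on the log2 scale (x axis) with its 95% interval for each detected member (y axis), WT in blue and BAF180-deficient in orange, with filled points for an adjusted p below 0.05. In Th2 cells all members but Egr3 rose, by 0.46 to 5.47, and in Naïve cells Egr2 rose by 2.23 and 2.01 while Egr1 was lower by 1.01 and 1.40 (log2).

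The difference between both responses was tested directly. It was called in the direction of a higher Th2 response for 5 of the 7 members in each genotype, Egr1, Egr2, Nr4a2, Nr4a3 and Ier3, against 11.6% of all genes in WT and 12.3% in BAF180-deficient cells. It was largest for Egr1, which rose in Th2 and was lower in Naïve cells, at 4.98 in WT (SE 0.47, limma adjusted p = 1.3e-07) and 5.62 in BAF180-deficient cells (SE 0.47, limma adjusted p = 2.95e-08). For Nr4a3 it was 3.53 (SE 0.73, limma adjusted p = 0.00116) and 3.50 (SE 0.73, limma adjusted p = 0.00122). Egr2 rose in both settings, and its Th2 rise exceeded its Naïve rise by 2.99 (SE 0.56, limma adjusted p = 0.000442) in WT and 3.47 (SE 0.56, limma adjusted p = 9.39e-05) in BAF180-deficient cells. For Nr4a2 the difference was 1.70 and 2.03, and for Ier3 2.22 and 1.79. The BAF180-deficient Ier3 call was lost in 6 of the 12 fits without 1 array, those without resting Naïve A or B, stimulated Naïve C, resting Th2 B or C, or stimulated Th2 A, with limma adjusted p up to 0.105. Nab2 differed by 0.21 (95% interval -0.15 to 0.57) in WT and -0.01 (-0.37 to 0.35) in BAF180-deficient cells.

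The resting levels from which both responses start were themselves far apart. Resting Th2 cells were lower than resting Naïve cells in 4 of the 7 members in both genotypes, against 17.6% of all genes called lower in WT and 17.5% in BAF180-deficient cells. Egr1 was lower by 37.6-fold in WT (log2 difference -5.23, SE 0.33, limma adjusted p = 1.56e-10) and 55.9-fold in BAF180-deficient cells (-5.80, SE 0.33, limma adjusted p = 3.49e-11). Its deposited intensities averaged 1604.67 (Naïve) and 112.67 (Th2) in WT, and 1796.23 and 103.13 in BAF180-deficient cells, which are smaller ratios. In BAF180-deficient cells an intensity of 109.3 became 7.44 on resting Naïve array A (Egr2). An intensity of 110.4 became 5.88 on resting Th2 array B (Egr1). Egr2 was 3.86-fold and 4.81-fold lower. Nr4a3 was at least 2.60-fold and 2.96-fold lower, and Nr4a2 at least 1.69-fold and 2.17-fold lower. The difference in Nr4a3 lost its call without resting Naïve A or resting Naïve B in each genotype (limma adjusted p = 0.109 and 0.067 in WT, 0.079 and 0.0541 in BAF180-deficient cells). Ier3 differed by 0.02 (95% interval -0.86 to 0.91) and 0.01 (-0.87 to 0.90) after normalization. By deposited intensity every resting Th2 array was brighter for Ier3 than every resting Naïve array of its genotype. The ranges were 136.1 to 183 against 79.2 to 105.1 in WT, and 237.3 to 284.2 against 83.4 to 176.9 in BAF180-deficient cells.

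The resting Naïve groups in which Egr1, Nr4a2 and Nr4a3 were high are the groups in which the B cell and myeloid marker sums given above were high. In an RNA pool a change in the share of a cell type and a change of RNA per cell cannot be told apart, and the part of B or myeloid cells in these resting levels was not tested. Between resting and stimulated Th2 cells, where the 6 members rose, the myeloid sum was 6.94 to 7.25 and 6.97 to 7.12, and the B cell sum 8.14 to 10.69 and 8.09 to 10.09. The sum of 4 CD8 T and NK cell markers was 7.55 to 8.99 at rest and 8.48 to 9.63 after stimulation, with Nkg7 called higher by 2.08 in WT and 2.05 in BAF180-deficient cells. The part of such cells in the Th2 rises was not tested.

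Ordered by group mean of the normalised values, Egr1 stood at 11.66 and 11.64 in resting Naïve cells (BAF180-deficient and WT) and at 10.07 to 10.63 in the 4 stimulated groups. Each neighbour in that order overlapped the next. Below a gap followed resting WT Th2 cells at 6.40 and resting BAF180-deficient Th2 cells at 5.85. By deposited intensity the highest Egr1 mean was 1927.63, in stimulated WT Th2 cells. Egr2 had a different order, with stimulated Th2 cells at 10.50 and 10.36, stimulated Naïve cells at 9.32 and 9.30, resting Naïve cells at 7.29 and 7.09 and resting Th2 cells at 5.14 and 5.03. In normalised values the 4 states were separate from their neighbours for Egr2, and the genotypes overlapped within each state. By deposited intensity over both genotypes, stimulated Th2 (880.8 to 3726.3) overlapped stimulated Naïve cells (496.9 to 1126.3). Resting Naïve (70.6 to 125.6) overlapped resting Th2 cells (51 to 78.5) in the same way. Nr4a3 was highest in stimulated Th2 cells (7.20 and 6.86), and its resting Naïve arrays overlapped both that state and stimulated Naïve cells. Ier3 was highest in stimulated Th2 cells (8.70 and 8.65), and the other 6 groups, from 7.44 down to 6.41, overlapped in turn.

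The third question was whether loss of BAF180 changed these genes. None of the 7 members was called between genotypes in any of the 4 states by limma with the study's 4 criteria (Z-ratio beyond 1.5, false discovery rate below 0.3, p below 0.05 and a mean signal above 0), and none had an unadjusted p below 0.05. Of all genes, the same criteria called 0.104% at rest and 0.0948% after stimulation in Th2 cells, and 0.759% and 0.114% in Naïve cells, so the count of 0 stands beside a low background. The study, with its own software, lists Egr1 among the genes that BAF180 appeared to activate in Th2 cells. The study's own p and false discovery rate were not recomputed here.

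The widest gap in Th2 cells was that of Egr1 at rest. After normalization all 3 BAF180-deficient arrays (5.67 to 6.01) were below all 3 WT arrays (6.03 to 6.72), as in 4.48% of all genes. By deposited intensity they overlapped (89.7 to 110.4 and 86.5 to 146.7). The difference of -0.55 (SE 0.33, 95% interval -1.24 to 0.14, limma adjusted p = 1) did not pass the test. Egr1 differed by -0.30 in stimulated Th2 (95% interval -0.99 to 0.39), -0.37 in stimulated Naïve (-1.06 to 0.32) and 0.02 in resting Naïve cells (-0.67 to 0.71). Egr2 differed by -0.12 to 0.20 over the 4 states, with intervals reaching at most 1.03 either way. For Ier3 the difference was 0.39 at rest and 0.04 after stimulation in Th2 cells, and 0.40 and 0.48 in Naïve cells, and each interval included 0. By deposited intensity the resting Th2 arrays did not overlap for Ier3, at 237.3 to 284.2 in BAF180-deficient and 136.1 to 183 in WT cells. The share of all genes without overlap before normalization was not counted.

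Nr4a3 differed by -0.35 in stimulated Th2 cells (95% interval -1.43 to 0.73) and by -0.15 to 0.16 elsewhere. Nr4a2 differed by 0.33 in resting Naïve cells (95% interval -0.24 to 0.90) and by -0.05 to 0.06 elsewhere. Without the 2 resting C arrays the Nr4a2 difference was 0.73 (SE 0.19, limma adjusted p = 0.112), which met the 4 criteria, and without the BAF180-deficient C array alone it was 0.83. Nab2 differed by -0.22 in resting Naïve cells (-0.48 to 0.03). The intervals still admit genotype differences of about 1 log2 unit or more for Egr1, Egr2, Ier3 and Nr4a3.

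The difference between genotypes in the change on stimulation was called for none of the 7 members, at limma adjusted p = 1 and with no unadjusted p below 0.05. The test called 0% of all genes for Th2 cells and 0.00948% for Naïve cells. For Th2 cells the differences ran from -0.35 (Ier3, 95% interval -1.60 to 0.90) to 0.26 (Egr2, -0.90 to 1.43). For Naïve cells they ran from -0.39 (Nr4a2 and Egr1) to 0.23 (Nab2).

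**Figure D3:**
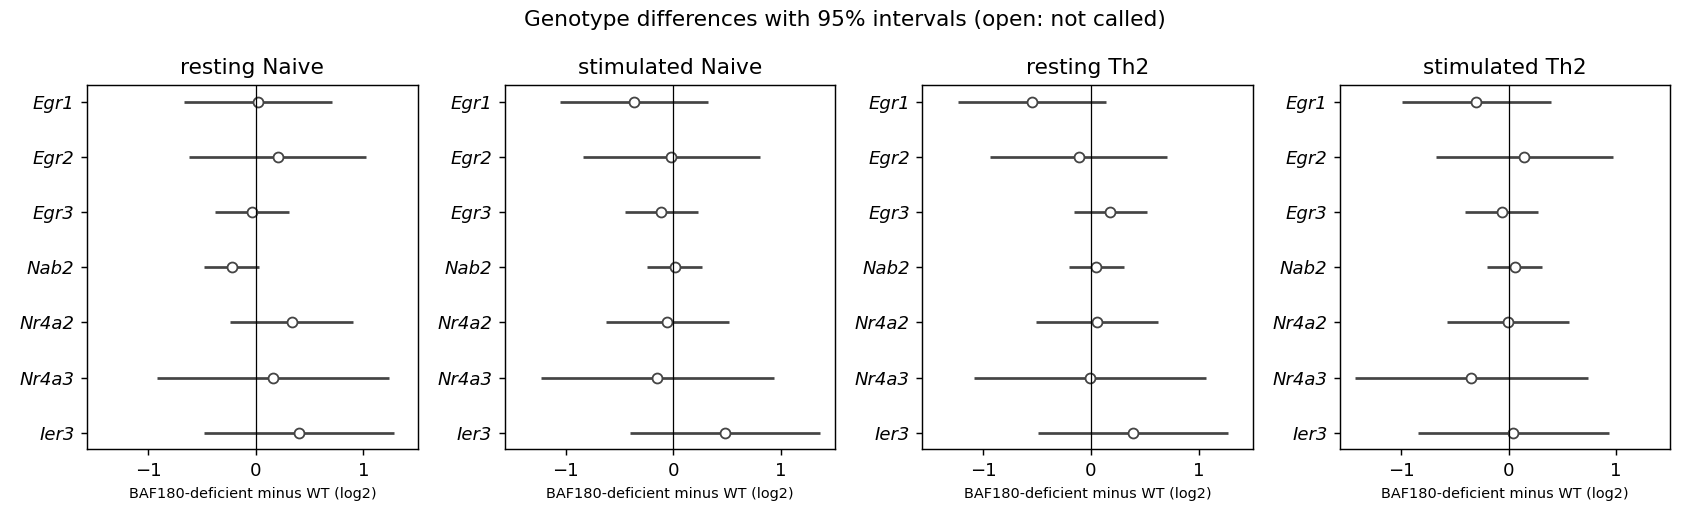
BAF180-deficient minus WT difference on the log2 scale (x axis) with its 95% interval for each detected member (y axis) in the 4 states, 3 arrays a group, with open points because none was called. Every interval includes 0, and the widest, those of Nr4a3, reach 1.43 from 0.

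The relatives of the members were Egr4, Nab1, Ier5 and Ier5l, of which 3 were detected. Egr4 was called higher in both WT responses, by 1.16 in Th2 (SE 0.22, limma adjusted p = 0.000403) and 0.98 in Naïve cells (SE 0.22, limma adjusted p = 0.00103), and the other 2 were not called in WT. Ier5l was called higher in BAF180-deficient than in WT resting Naïve cells by the 4 criteria, by 1.40 (SE 0.37, limma adjusted p = 0.242), and no relative was called between genotypes in another state. A list of 48 other immediate early genes, like all lists here chosen with earlier results known, had 40 detected. In WT Th2 cells 23 of the 40 were called higher and 2 lower, with a median of 1.16, against 12.6% and 15.9% of all genes. In WT Naïve cells 3 were higher and 22 lower, with a median of -1.33, against 23.2% and 21.8% of all genes. The medians of all genes were -0.01 in both. The genes with the largest called changes in Th2 cells were Dusp4 (3.36) and Dusp2 (2.65), phosphatases of MAP kinases, and Nfkbia (2.77), the inhibitor of NF-κB. In Naïve cells they were Fos (-5.75), Fosb (-4.68), both AP-1 subunits, and Dusp1 (-4.73). The list was lower in resting Th2 than in resting Naïve WT cells in 25 of 40 genes and higher in 4. Of all genes, 17.6% were called lower and 17.9% higher there. The resting Naïve groups had the high B cell and myeloid marker sums given above, whose part in this count was not tested. None of the 40 was called between genotypes in any state.

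**Figure D4:**
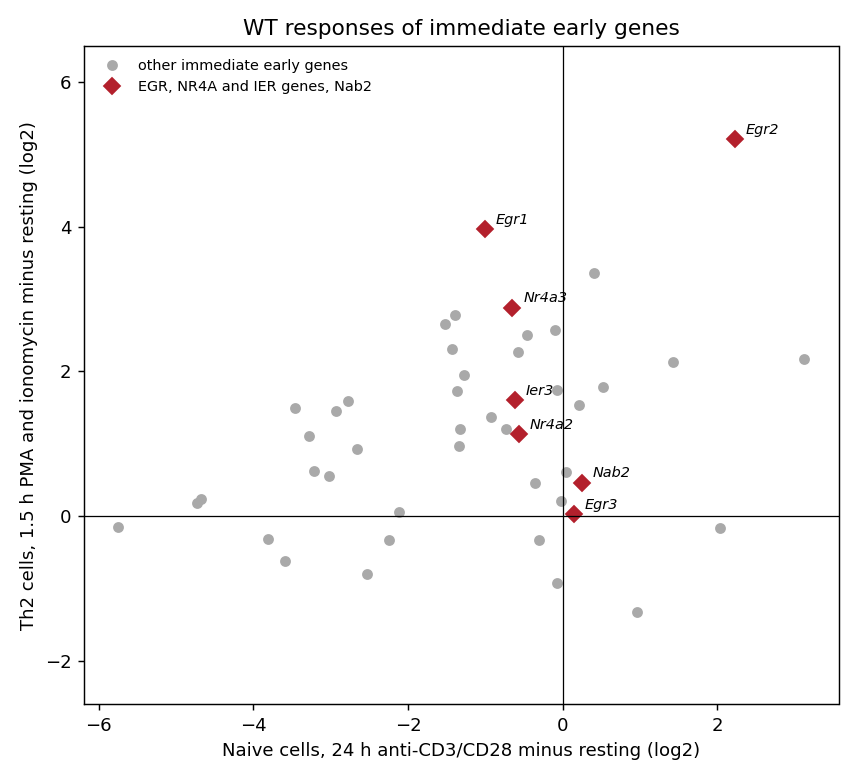
WT change on the log2 scale in Naïve cells after 24 h of anti-CD3/CD28 (x axis) against that in Th2 cells after 1.5 h of PMA and ionomycin (y axis), with red diamonds for the 7 detected members and grey circles for 40 other immediate early genes. Egr2 lies in the upper right at 2.23 and 5.21, Egr1 in the upper left at -1.01 and 3.97, and the median of the grey genes is -1.33 on the x axis and 1.16 on the y axis.

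Lists of genes that act upstream of the members were counted against the same shares of all genes, 12.6% higher and 15.9% lower in WT Th2 cells. The lists were not tested against each other. Of 12 detected factors that act at immediate early promoters, 1 was called higher and 2 lower in WT Th2 cells, Elk3 at 0.74, Hdac5, a histone deacetylase, at -2.27 and Ep300, an acetyltransferase, at -1.55. In WT Naïve cells 5 were lower and none higher, led by Hdac5 (-1.45), Ep300 (-1.08) and Mef2a (-0.98). Of 21 genes of RAS, ERK, PKC and calcium signalling, 5 rose and 7 fell in WT Th2 cells. Camk2d rose by 2.19, Rasgrp1, which activates RAS in T cells, changed by -2.01, and Prkcq, the main PKC of the T cell synapse, by -1.75. In WT Naïve cells 2 rose and 9 fell, with Ppp3ca, a calcineurin subunit, at -2.21, Rasgrp1 at -2.19 and Prkca at 1.64. For both lists the Naïve counts in either direction lay near the 45.1% of all genes called there. The Th2 count of the promoter factors lay near the 28.4% of all genes called in WT Th2 cells.

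Of 9 known targets or partners of EGR2 and EGR3, 5 rose and 3 fell in WT Th2 cells, with the largest changes in Tnf (4.46), Fasl (3.23, listed as Tnfsf6) and Cd40lg (1.97, listed as Tnfsf5). Of all genes, 12.6% were called higher and 15.9% lower there. In WT Naïve cells 1 rose and 4 fell, led by Dgka (-3.01) and Dgkz (-1.57), diacylglycerol kinases, and Socs3 (-1.17). That Naïve count lay near the 45.1% of all genes called in either direction. Rxrb, a partner of NR4A receptors, was called lower in both WT responses (-0.73 and -0.61), and the other detected RXR gene was not called. No gene of the lists of factors, signalling genes, EGR targets and RXR partners was called between genotypes in any state.

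The genes most like each member over the 24 arrays are given as a description, since the arrays of a group share a state and all share a normalization. Egr1 was closest to Cd69, an early activation marker (Pearson r = 0.959), Cd83 (0.954) and Tsc22d2 (0.933, listed as 1810043J12Rik). Egr2 was closest to the cytokine genes Ccl4 (0.958) and Ifng (0.958) and to Rgs16 (0.957). Nr4a3 was closest to Plk3 (0.942), Arl5b (0.942) and Fasl (0.941). Nr4a2 was closest to Tmem65 (0.890), AY078069 (0.878) and Ets2 (0.875), and Ier3 to Rgcc (0.883, listed as 1190002H23Rik), Tgfb1 (0.875) and Tnfsf9 (0.866). Nab2 was closest to D030056L22 (0.911), Riox1 (0.911, listed as 2410016O06Rik) and Mtap (0.898). Egr3, near background, had no neighbour above 0.689 (Ifna1), followed by Trfp (0.687) and Cdh1 (0.684).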

How the data were processed

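RNA of 24 samples was hybridised to Illumina MouseRef-8 v2 beadchips. The authors deposited a table of bead intensity per probe, exported from GenomeStudio without normalization (version 1.6.0 per the labels), with the detection p-value of each probe and array, also deposited. Groups and replicate letters come from the labels.

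Here intensities were background corrected, quantile normalised and put on the log2 scale with neqc (offset 16) of limma 3.58.1 in R 4.3.3. Fold changes of dim probes are understated by the offset. Normalised folds between states can also exceed the ratios of deposited intensities, as for Egr1 at rest. A probe was kept where its detection p-value reached 0.02 or less on any array. A linear model with 8 group means over all 24 arrays (16 residual degrees of freedom) was fitted with limma, and p-values were adjusted by Benjamini-Hochberg over all 14246 probes. The study's Z-score transformation was run as an alternative. Responses were called at an adjusted p below 0.05, and genotype differences by the study's 4 criteria. In these criteria p came from limma and the false discovery rate from Benjamini-Hochberg, in place of the study's software. The brightest probe stood for a gene. With 3 arrays a group, an exact permutation test cannot go below 0.1, so limma's model across all probes was used, and the number of arrays limits the precision. By the study, 3 mice of each genotype, taken in pairs, gave the RNA, and the labels do not tie these mice to letters. Deviations of WT and BAF180-deficient arrays of a letter from their group means correlated at 0.301 (A), 0.136 (B) and 0.516 (C) over the 4 states, so letters may pair the genotypes. The main fits were unpaired. A replicate block, with an effect of each letter shared by all groups, was run as an alternative, and no paired test within a state was run.

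Named are every probe of every member, Pbrm1 as a check of the labels, the 3 genes of highest Pearson r for each detected member, and of each list the 3 called genes with the largest change in each WT response. Members and lists were chosen with earlier results of these data known. Alternatives were other normalizations, filters, fits, call rules, and fits without each replicate. The fits were tested on simulated data. Sequences are from RefSeq (GRCm38.p6).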

Additional observations from a re-analysis of the deposited data

Results flagged for a closer look

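The change on stimulation differed between Th2 and Naïve cells by a test of the difference itself for 5 members in each genotype. The Th2 minus Naïve difference in WT cells was 4.98 for Egr1, 2.99 for Egr2, 1.70 for Nr4a2, 3.53 for Nr4a3 and 2.22 for Ier3 (log2). In BAF180-deficient cells it was 5.62 for Egr1, 3.47 for Egr2, 2.03 for Nr4a2, 3.50 for Nr4a3 and 1.79 for Ier3. Stimulus, time and cell type differ together here and cannot be told apart. Groups of 3 arrays are too small for a test of single outlying samples.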

How the results depend on the processing

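No called change of a member turned direction under any alternative run, all of which normalised between arrays. The counts of members called moved by over 1.5 times under these alternatives. In WT Naïve cells the 2 calls became 1 with only the compared groups in the fit, 1 under the study's 4 criteria and 5 without the resting C arrays of both genotypes. In BAF180-deficient Naïve cells the 4 calls became 2 under the 4 criteria. Between genotypes in resting Naïve cells the count went from 0 to 1 without those C arrays. Leaving out 1 replicate at a time gave 1 to 3 calls in WT Naïve and 3 to 6 in BAF180-deficient Naïve cells, 5 to 6 in BAF180-deficient and 6 in WT Th2 cells, 4 to 5 and 5 for the difference of responses in BAF180-deficient and WT cells, 3 to 4 for the resting contrast, and 0 to 1 between genotypes in resting Naïve cells (0 in the other states).

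Single genes lost a call in 14 cases apart from fits without a replicate. The 4 criteria ended the calls of Nab2 in both Th2 responses and in BAF180-deficient Naïve cells, Egr1 in WT Naïve cells, and Nr4a2 in BAF180-deficient Naïve cells and between the resting WT groups. Ier3 in BAF180-deficient cells lost its call without the detection filter or without moderated variances, in Th2 cells (limma adjusted p = 0.0814 and 0.0636) and for the difference of responses (0.0737 and 0.059). With only the compared groups in the fit, limma's adjusted p was 0.103 for Egr1 in WT and for Nr4a2 in BAF180-deficient Naïve cells and 0.0888 for Nr4a3 between the resting BAF180-deficient groups. With Z-score normalization it was 0.217 for Nab2 in BAF180-deficient Naïve cells. With the replicate block the members called were 6 and 6 in Th2, 2 and 4 in Naïve cells (WT and BAF180-deficient), and 0 between genotypes, and no call of a member changed in any comparison. In single states the correlation behind the pairing went down to -0.00263, and 13 of 24 arrays were closest to their own letter in the other genotype. Between resting and stimulated arrays of a letter it was 0.0841 (A), 0.206 (B) and 0.235 (C), with 20 of 24 closest to their own letter.

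Changes that were not called turned sign as follows (log2). With Z-score normalization Egr3 was -0.052 (WT) and -0.078 (BAF180-deficient) in Naïve cells, 0.066 and 0.048 for the difference of responses, -0.12 and -0.0024 at rest, and 0.0057 between genotypes in stimulated Th2 cells. Nab2 was -0.0040 in WT Naïve cells, 0.19 for the BAF180-deficient difference of responses, -0.056 at rest in BAF180-deficient cells, and -0.018 in resting Th2 and -0.019 in stimulated Naïve cells between genotypes. Nr4a2 was -0.028 in resting Th2 and Egr1 -0.077 in resting Naïve cells between genotypes, and the Ier3 genotype difference in the Naïve response was -0.00011. With quantile normalization alone Ier3 was -0.0014 (WT) and -0.022 (BAF180-deficient) at rest and Nab2 -0.0023 for the genotype difference in the Th2 response. The mean of all probes gave 0.0077 for Nr4a3 between genotypes in resting Th2 cells. Without the resting C arrays Ier3 was -0.43 and -0.57 at rest, Egr1 -0.12 and Egr2 -0.14 between genotypes in resting Naïve cells, and Egr2 0.12 and Ier3 -0.052 for the genotype difference in the Naïve response.

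Fits without 1 replicate spanned 0 for uncalled changes only. Egr3 ran from -0.070 to 0.080 in WT Th2, from -0.070 to 0.17 in BAF180-deficient Naïve cells and from -0.010 to 0.14 between the resting WT groups. Ier3 ran from -0.43 to 0.33 (WT) and -0.57 to 0.46 (BAF180-deficient) between resting groups, and Nab2 from -0.092 to 0.071 for the BAF180-deficient difference of responses. Between genotypes the ranges in resting Th2 cells were -0.29 to 0.10 (Egr2), -0.025 to 0.13 (Nab2) and -0.034 to 0.017 (Nr4a3). In stimulated Th2 cells they were -0.075 to 0.36 (Egr2), -0.12 to 0.029 (Egr3), -0.023 to 0.13 (Nab2), -0.18 to 0.16 (Nr4a2) and -0.13 to 0.17 (Ier3). In resting Naïve cells they were -0.43 to 0.33 (Egr1), -0.42 to 0.58 (Egr2), -0.14 to 0.057 (Egr3), -0.46 to 1.05 (Nr4a3) and -0.047 to 0.98 (Ier3). In stimulated Naïve cells they were -0.30 to 0.26 (Egr2), -0.070 to 0.075 (Nab2) and -0.13 to 0.023 (Nr4a2). For the genotype difference in the Th2 response they were -0.071 to 0.087 (Nab2) and -0.24 to 0.10 (Nr4a2), and in the Naïve response -0.70 to 0.062 (Egr1), -0.60 to 0.40 (Egr2), -0.22 to 0.027 (Egr3), -1.20 to 0.31 (Nr4a3) and -0.50 to 0.53 (Ier3). The causes were not tested. Egr3 and Nab2 lay near background, where signal limits what can be measured.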
